A study of Mus musculus with 4 samples.

Results

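The data described here are the response of Cic-deleted CD4+ T cells to 3 days of stimulation, and the places where that response departed from the response of WT cells. CIC (capicua) is a transcriptional repressor. Cells came from spleens of C57BL/6J mice aged 10 to 12 weeks per the labels, either Cic f/f (WT) or Cic f/f; Cd4-Cre (cKO), in which Cre driven by the Cd4 promoter acts in T cells from their development in the thymus onwards. Cells of both genotypes were taken on day 0 or after culture for 3 days on plates coated with antibodies to CD3 and CD28, each at 2 μg/ml. There were 4 libraries, 1 for each genotype and day, and all carry the floxed allele. The members are all 23333 named genes of the table that sets cKO day 3 beside cKO day 0. Of these, 11226 had at least 1 FPKM (fragments scaled to the length of the transcript and to the size of the library) in either cKO library and were used, against 11434 in the WT pair and 11653 in any of the 4 libraries, out of 31171 loci in all.

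Naïve T cells are small and quiescent. They are held in that state by factors such as KLF2, TCF7 and FOXO1, and they circulate through lymphoid organs by means of CCR7, L-selectin and S1PR1. Signals from the T-cell receptor and CD28 make them grow, divide and take up effector functions, which include cytokines and the granzymes and perforin of cytotoxic granules. ERK (extracellular signal-regulated kinase), a kinase downstream of the receptor, relieves repression by CIC of its target genes, among them the PEA3 transcription factors Etv1, Etv4 and Etv5 and several inhibitors of ERK signalling itself.

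The gate of the day 0 cells is given in 2 ways. The labels give CD25- CD44hi CD62Llo and call the cells naïve, and the methods of the study give CD44lo CD62Lhi. The T-cell markers Cd3e and Cd4 were present in all libraries, with FPKM values of 113 and 135 in WT day 0, 74.5 and 86.3 in WT day 3, 131 and 242 in cKO day 0, and 85.8 and 174 in cKO day 3. Cic itself had FPKM values of 25.4 and 17.8 in WT and 24.9 and 12.2 in cKO on days 0 and 3. A value over the whole locus does not check a deletion of part of the gene. The CIC targets Etv4, Etv5, Spred1 and Dusp6, of the list given below, were higher in cKO than in WT on both days. Etv4 reached an FPKM of 1 only in cKO, so the filter fixed its direction. Spry2 and Dusp5 of that list were lower in cKO on both days. The depth of the libraries can be read from weakly expressed genes, whose values are multiples of 1 fragment. An FPKM of 1 on a transcript of 2000 bases stood for about 14.2 fragments in WT day 0 and 17.4 in cKO day 0, and 1 fragment was worth 0.867 times as many FPKM in WT day 3, 0.818 times in cKO day 0 and 0.818 times in cKO day 3 as in WT day 0.

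Each gene was given a log2 ratio of day 3 to day 0 within each genotype, log2((day 3 + 0.1)/(day 0 + 0.1)), and the difference of the cKO ratio and the WT ratio. A log2 value over 1.5 in either direction is called here past the size threshold. The 0.1 makes changes of weakly expressed genes look smaller than they are. With 1 library a group no difference has a replicate check, nothing was tested, and the intervals given below are 95% intervals for the counting of fragments only, from estimated fragment numbers. WT and cKO values come from tables that were normalized separately, so levels set side by side across genotypes rest on that scaling, while differences of ratios do not.

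The CIC targets come first. Their median level was higher in cKO before stimulation, and the gap was smaller after it. Dusp6, which encodes a phosphatase that inactivates ERK, carries in its promoter 2 of the octamers that CIC binds, whose letters are TGAATGAA, TGAATGGA, TCAATGAA and TCAATGGA, searched on both strands. They are shown in capitals in the RefSeq promoter (GRCm38.p6, plus strand, chr10:99262981-99263280, from 250 bases before the start of the gene to 50 after it), where both read as the reverse complement and begin 24 bases before the start and at base 2 after it.

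Dusp6: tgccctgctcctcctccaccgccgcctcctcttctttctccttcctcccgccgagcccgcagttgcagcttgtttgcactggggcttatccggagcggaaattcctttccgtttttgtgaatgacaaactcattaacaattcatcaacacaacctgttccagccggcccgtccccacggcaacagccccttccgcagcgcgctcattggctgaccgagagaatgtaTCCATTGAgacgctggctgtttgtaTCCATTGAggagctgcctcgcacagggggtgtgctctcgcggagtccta

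One of these octamers stood in 3.84% of 32851 such windows, and in 236 of the 8576 genes measured here that have a window (2.75%). Of 7 measured genes of the list of ERK feedback and CIC targets with a window, 2 held one, Dusp6 and Spry2. A match of letters is a description and not a binding site.

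In WT, Dusp6 had FPKM values of 13.2 before and 15.6 after stimulation, and in cKO of 35.2 and 22.7. Both cKO values lay above both WT values, and the log2 ratio of day 3 to day 0 was 0.24 in WT and -0.63 in cKO, a difference of -0.87 (-1.14 to -0.60). Etv5, a PEA3 transcription factor, went from 0.706 to 1.49 in WT and from 5.95 to 5.85 in cKO. It thus stood higher in unstimulated cKO cells than in stimulated WT cells, and its difference of log2 ratios was -1.01 (-1.78 to -0.24). Etv4 went from 0.278 to 0.337 in WT and from 2.68 to 4.70 in cKO, with a difference of 0.57 (-0.97 to 2.12) on 5 to 98 estimated fragments a library. Spred1, which encodes an inhibitor of the activation of RAF kinases, had FPKM values of 3.84 and 7.18 in WT and of 18.7 and 14.7 in cKO, a difference of -1.23 (-1.6 to -0.86). Dusp4, which encodes another phosphatase of ERK, had 4.99 and 35 in WT and 20.6 and 52.2 in cKO, a difference of -1.45 (-1.78 to -1.11). Its level was higher in cKO on both days, but the gap was wider on day 0.

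Spry4, a Sprouty inhibitor of receptor signalling, was the only one of the 14 measured genes of this list past the size threshold in the difference. It went from 0.235 to 0.408 in WT and from 2.19 to 1.01 in cKO, a difference of -1.65 (-2.81 to -0.48), or -0.85 with a pseudocount of 1. Spred2 had FPKM values of 7.46 and 6.17 in WT and 17.4 and 10.3 in cKO, and Per2, a circadian clock gene, had 1.12 and 0.876 in WT and 3.47 and 1.46 in cKO. Spry2 had 5.49 and 5.28 in WT and 3.83 and 2.13 in cKO, lower in cKO on both days. Of the remaining members, Spry1, Dusp5, Phlda1, Ccnd1 and the immediate early gene Egr1 had differences between -0.43 and 0.44. Over the list, 10 of the 14 had a smaller log2 ratio in cKO than in WT. Its median log2 ratio was -0.61 in cKO and 0.22 in WT, its median cKO to WT log2 ratio was 1.31 on day 0 and 0.56 on day 3, and its median difference of log2 ratios was -0.62. Over all genes that difference had a median of -0.03 and was above 0 for 46.1%. Counts of larger and smaller ratios in the lists are to be read beside that share. Etv4 and Spry4 reached an FPKM of 1 only in cKO libraries. The filter thus fixed that they stood higher in cKO, and this direction is a description only. With no filter the median difference over all 18 genes of the list was -0.455. The list was chosen with results of these data known.

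In its bulk the response of cKO cells followed that of WT cells. Of the 11226 genes, 1943 (17.3%) were higher on day 3 in cKO by more than 1.5 on the log2 scale and 781 (6.96%) lower (1347 and 1151 once ratios were centred on the median of all genes), while in WT cells 2171 (19%) were higher and 1010 (8.83%) lower of 11434. Among 11007 genes kept in both pairs, 1671 were higher in both genotypes, which is 88.0% of those higher in cKO and 80.6% of those higher in WT, and 609 were lower in both, 83.9% and 71.8%. Across genes the 2 log2 ratios had a Pearson correlation of 0.849 over 11653 genes and of 0.951 over the 8646 with an FPKM of at least 5 in some library and without small RNA genes. Genes are not independent replicates, and genes of few fragments scatter most. The difference of log2 ratios lay between -0.26 and 0.23 from the lower to the upper quartile, and within 0.5 of 0 for 75.9%.

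**Figure D1:**
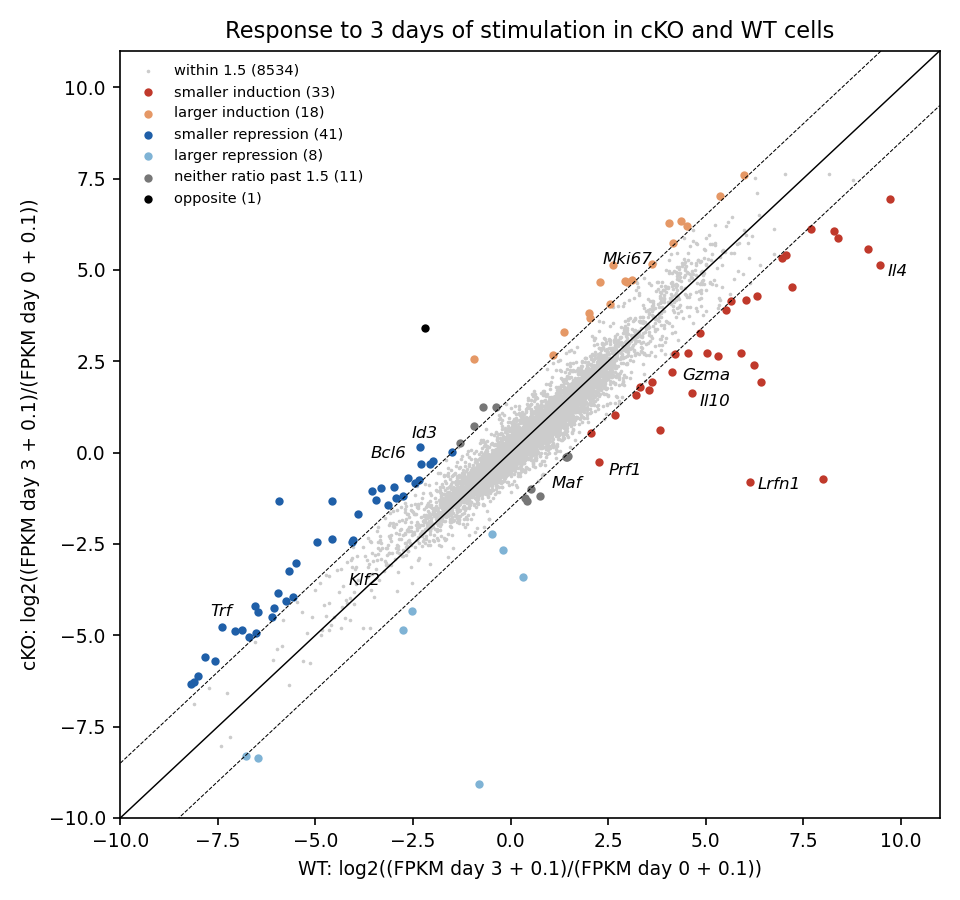
Log2 ratio of day 3 to day 0 in WT cells (horizontal) and in cKO cells (vertical) for 8646 genes that reached an FPKM of 5 in some library, small RNA genes left out, each point 1 gene and each ratio from 1 library a day. The solid line marks equal ratios and the dashed lines a difference of 1.5. Most points lie along the solid line, and the 112 coloured genes outside the dashed lines are grouped by the kind of departure, with 33 of smaller induction and 41 of smaller repression.

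Lists of division, growth and metabolism had median ratios above 1 in both genotypes. All 20 measured genes of mitosis were past the threshold upwards in both genotypes, with median log2 ratios of 4.89 in cKO and 4.59 in WT. In cKO 18 of the 20 had the larger ratio, and the median difference over the list was 0.37. Mki67, expressed in cycling cells, went from an FPKM of 15.1 to 238 in WT and from 9.90 to 234 in cKO. Day 3 levels were thus alike, and the larger log2 ratio in cKO, 4.55 against 3.97, came from a lower day 0 value. Tpx2, Ccnb1 and Bub1, which act in the mitotic spindle and in its checkpoint, showed the same order, with day 0 values of 2.11, 1.68 and 0.818 in WT and 1.09, 0.638 and 0.484 in cKO. Of 24 genes of DNA replication, 22 were past the threshold upwards in cKO and 23 in WT, and the medians were 3.27 and 3.22. Of 20 glycolysis genes 17 and 18 were past it, with medians of 3.08 and 3.15, and Tpi1, which encodes triosephosphate isomerase, went from 16.5 to 457 in WT and from 8.98 to 473 in cKO. Of 20 genes of cholesterol synthesis 13 and 16 were past it, with medians of 2.03 and 2.07, and of 22 genes of ribosome biogenesis 11 and 12, with medians of 1.43 and 1.60. For the 21 genes of the T-cell receptor and its proximal signalling the medians were -0.18 and -0.17. The 14 reference genes had a median difference of 0.04.

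The 8 genes with the highest log2 ratios in cKO cells, at an FPKM of at least 5 in some library and without small RNA genes, included 4 secreted or granule proteins of T cells, Gzmb, Il13, Il24 and Csf2. Gzmb, which encodes granzyme B, went from 4.84 to 873 in cKO, a log2 ratio of 7.46, and from 6.13 to 2712 in WT, where it was 8.77. Fads2, a desaturase of fatty acids, went from 0.110 to 41.0 in cKO and from 0.568 to 41.8 in WT. Pros1, which encodes protein S, a ligand of TAM receptors, had 0.512 and 84.7 in cKO and 0.955 and 83.4 in WT, and the histone gene Hist1h2af had 1.93 and 262 in cKO and 4.73 and 198 in WT. The cytokine genes Csf2 and Il13 were listed at 0 on day 0 in cKO, and reached 19.6 and 19.7 on day 3, where WT had 50.9 and 63.9. Cetn4, which encodes a centrin, was listed at 0 and then at 18.2 in cKO, against 0.167 and 20.5 in WT. Among the genes with the lowest ratios, the immediate early gene Fosb fell in both genotypes by size, from 47.0 to 0.389 in cKO and from 55.5 to 0.259 in WT, and the haemoglobin locus Hbb-b1,Hbb-bs went from 116 to 0.430 in cKO and from 311 to 2.04 in WT. Lyz2, a lysozyme gene of myeloid cells, S100a8, Vcam1, Apol8, the haemoglobin locus Hba-a1,Hba-a2 and the RNA gene AF357399 were listed at 0 on day 3 in cKO, after FPKM values of 8.59 to 53.5 on day 0. Small RNA genes were left out by their names only, which does not catch AF357399, and its locus overlaps Rps16.

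Departures from the WT response were a small part of it. The difference of log2 ratios was over 1.5 for 267 of 11653 genes (2.29%) and under -1.5 for 181 (1.55%). Of these 448 genes, 103 were induced less in cKO than in WT, 155 repressed less, 75 induced more and 46 repressed more, 5 went past the threshold in opposite directions and 64 had neither ratio past it. Many of these genes had few fragments. Of the 334 with an estimate, 101 had under 20 fragments in every library, compared with 3.9% of 10379 genes with an estimate, and 165 of the 448 had at least 1 value listed at 0. With at least 20 fragments the counts were 142 and 88. With an FPKM of at least 5 and no small RNA genes there were 112 such genes. Between genotypes on 1 day, 53 of 10904 genes (0.486%) were higher in cKO by over 1.5 on day 0 and 198 (1.82%) lower, and on day 3 these were 81 (0.744%) and 132 (1.21%) of 10890.

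Each difference is the sum of a day 3 part, the cKO to WT log2 ratio on day 3, and a day 0 part, the WT to cKO log2 ratio on day 0. A part with more than 2/3 of the difference is said here to carry it. Of the 33 genes of smaller induction, 18 were carried by day 3, 7 by day 0 and 8 by both. Of the 41 of smaller repression, 12 were carried by day 3 and 22 by day 0, and of the 18 of larger induction 2 and 12. In smaller induction the genotypes thus mostly parted on day 3, and in larger induction on day 0.

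**Figure D2:**
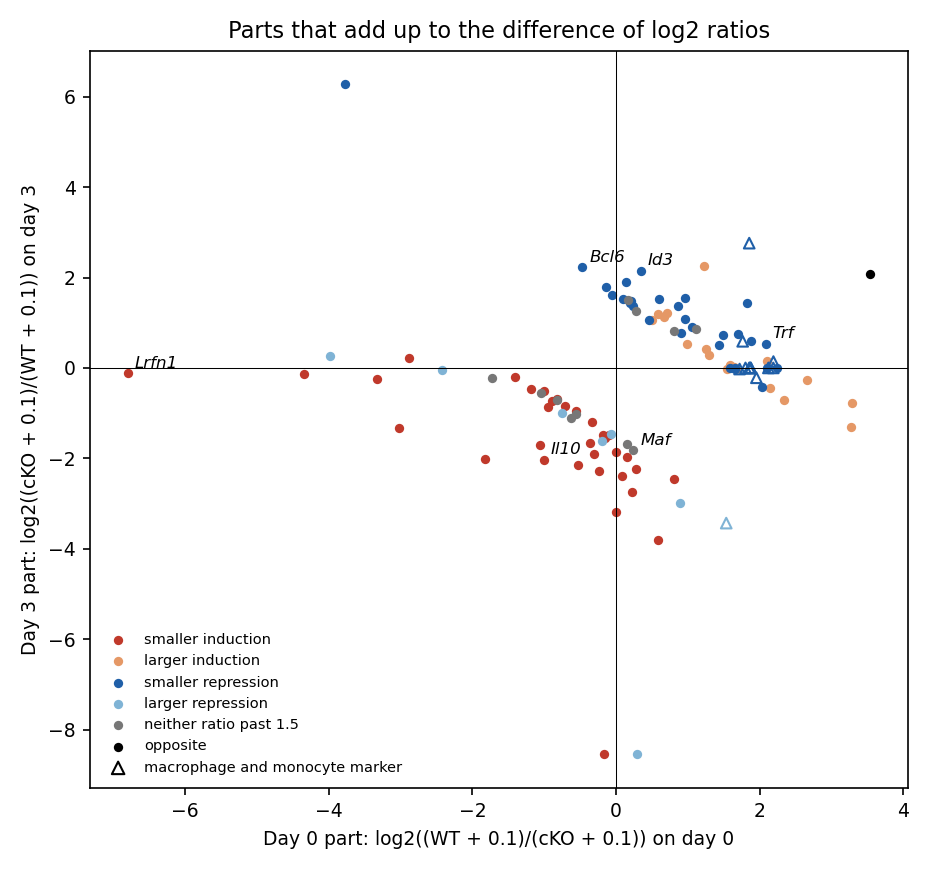
Day 0 part (horizontal) and day 3 part (vertical) of the difference of log2 ratios for the 112 departing genes, in log2 units, each point 1 gene with 1 library a group. The parts add up to the difference, so genes near the vertical axis departed by their day 3 level and genes near the horizontal axis by their day 0 level. Maf, Id3 and Bcl6 lie within 0.5 of the vertical axis, Il10 lies about 1 to its left, and the open triangles, markers of macrophages and monocytes, lie mostly to the right along the horizontal axis.

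Genes induced less in cKO included those of cytokines and of cytotoxic granules. Il10, which encodes the anti-inflammatory cytokine interleukin 10, went from 1.70 to 45.3 in WT and from 3.52 to 11 in cKO. It began higher in cKO and ended lower, with log2 ratios of 4.65 in WT and 1.62 in cKO and a difference of -3.03 (-3.92 to -2.15). Prf1, the gene of the pore-forming protein perforin, went from 6.15 to 29.8 in WT and from 7.30 to 6.09 in cKO, so that only WT cells were higher on day 3, and the difference was -2.52 (-3.0 to -2.03). Gzma went from 31.0 to 550 in WT and from 25.4 to 117 in cKO, a difference of -1.95 (-2.27 to -1.62). Gzmc went from 0.328 to 143 in WT and from 0.268 to 21.4 in cKO, a difference of -2.52 (-4.98 to -0.06). On day 3 Gzma and Gzmc were over 4 times lower in cKO, while on day 0 the genotypes were close. For Gzmb the difference was -1.30 (-1.82 to -0.79).

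Over the list of cytotoxic effector genes, 7 of 18 had a difference under -1.5 (1.55% of all genes did). These were Gzma, Gzmc, Gzmd, Gzme, Gzmf, Prf1 and Klrg1. Gzmd, Gzme and Gzmf were listed at 0 on day 0 in both genotypes, and on day 3 had FPKM values of 4.22, 2.72 and 1.46 in WT and 0.133, 0.542 and 0.138 in cKO. These 3 reached an FPKM of 1 only in WT day 3, so the filter fixed the sign of their difference and the count is a description only. The same holds for Il9, Il22 and Ccl17 in the lists below. The granzymes are close paralogues, and reads may be shared among them. Over all genes 46.1% had a larger ratio in cKO. In this list 15 of 18 had a smaller ratio in cKO, and the median log2 ratio was 1.78 in cKO and 2.70 in WT. Eomes, a T-box factor of cytotoxic cells, and Serpinb6b were among the 3 with a larger ratio, with differences of 0.28 and 0.40. As sums, markers of the other cells that use these genes were also lower on day 3 in cKO, those of NK cells already on day 0. The 2 CD8 T-cell markers had a summed FPKM of 15.3 on day 3 in WT and 9.40 in cKO, after 4.46 and 7.74 on day 0. Cd8a alone went from 0.353 to 8.36 in WT and from 0.469 to 3.59 in cKO. The 11 NK-cell markers summed to 62.3 and 21.0 in WT and to 47.1 and 14.9 in cKO, with Ncr1 listed at 0 on day 3 in both. Their part in the result was not tested, and in bulk RNA fewer cells of a type and less RNA per cell cannot be told apart.

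Cytokine genes of TH2 cells had lower day 3 levels in cKO. Il4 was listed at 0 on day 0 in WT and stood at 0.713 in cKO, and on day 3 it had 70.7 in WT and 28.2 in cKO. Il24 was likewise listed at 0 and at 0.109, and reached 83.8 and 25.5. Il13 reached 63.9 and 19.7, and Il5 3.88 and 1.30. Gata3, the lineage factor of TH2 cells, was somewhat lower in cKO on both days and had nearly equal ratios, with 16.1 and 54.7 in WT, 13.5 and 42.1 in cKO and a difference of -0.12 (-0.41 to 0.17). Of 14 measured TH2 genes 13 had a smaller log2 ratio in cKO, 3 of them under -1.5 (1.55% of all genes were). Il4 and Il24, both listed at 0 on day 0 in WT, were among these 3. Their differences were -4.347 (-9.402 to 0.709) and -2.778 (-6.560 to 1.004), so neither was beyond counting error. That of Il4 was carried by day 0. The list medians were 3.01 in cKO and 4.52 in WT. The medians rest partly on genes listed at 0, and over the 10 without such a value the median difference was -0.85.

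Il21, the cytokine gene of follicular helper cells, went from 0.0442 to 5.60 in WT and from 0.109 to 1.19 in cKO, a difference of -2.67 (-5.38 to 0.04). The list of IL-10, IL-21 and TH17 genes had 4 of 13 members under -1.5 (1.55% of all genes were), Il10, Il21, Il22 and Maf. It had 1 over 1.5 (2.29% of all genes were), the chemokine receptor gene Ccr6. Its medians were 1.62 in cKO and 2.47 in WT. Of the TH1 genes, Ifng, which encodes interferon γ, went from 5.08 to 35.3 in WT and from 4.13 to 11.1 in cKO, a difference of -1.37 (-2.05 to -0.68), and the chemokine gene Ccl3 from 10.4 to 57.1 and from 8.66 to 18.3, a difference of -1.38 (-2.02 to -0.73). Il18r1, a subunit of the interleukin 18 receptor, departed the other way, from 17.3 to 1.27 in WT and from 17.7 to 3.39 in cKO, a difference of 1.31 (0.64 to 1.99). The TH1 list therefore had no common direction, with 9 of 16 members smaller in cKO, 7 larger and a median difference of -0.15. Only Hlx, a homeobox gene, was past the threshold. All 9 measured chemokine genes had a smaller ratio in cKO, and Ccl17 and Ccl22 were listed at 0 on day 0 in WT and reached 5.91 and 13.2 on day 3, against 0.563 and 9.57 in cKO.

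Receptors and regulators of activated cells were part of the same class. Tnfrsf8, which encodes CD30 of the TNF receptor superfamily, went from 0.0408 to 43.7 in WT and from 0.0742 to 11.7 in cKO, a difference of -2.20 (-4.18 to -0.23). Havcr2, which encodes the inhibitory receptor TIM-3, went from 0.263 to 16.4 and from 0.289 to 5.78, a difference of -1.59 (-3.05 to -0.14), and Zbtb32, a zinc finger repressor of activated lymphocytes, from 0.269 to 29.1 and from 0.373 to 9.14, a difference of -2.02 (-4.03 to -0.01). Ubd, which encodes the ubiquitin-like protein FAT10, went from 0.653 to 10.7 in WT and from 0.400 to 0.666 in cKO, a difference of -3.23 (-5.56 to -0.90). Like Gzmd, it reached an FPKM of 1 only in WT day 3, so the filter fixed the sign and the value is a description only. Il2ra, the α chain of the interleukin 2 receptor, was 508 on day 3 in WT and 344 in cKO, a difference of -0.61 (-0.92 to -0.31). Of 20 activation markers 13 were past the threshold upwards in cKO and 14 in WT, and 16 had a smaller ratio in cKO, with a median difference of -0.31. Cd44, a marker of activated and memory cells, went the other way, from 19.2 to 26 in WT and from 12.6 to 35.4 in cKO, a difference of 1.05 (0.81 to 1.28).

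**Figure D3:**
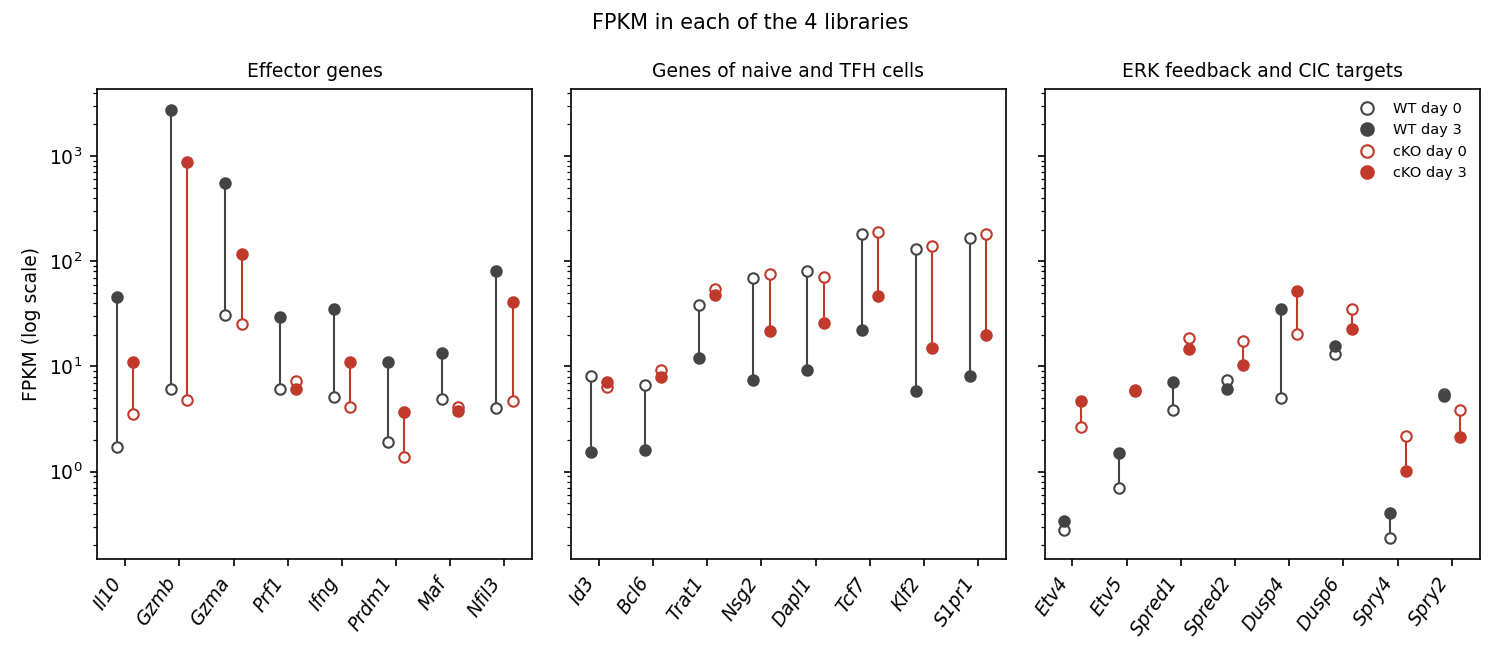
FPKM on a log scale for 24 genes in the 4 libraries, WT in grey and cKO in red, day 0 as open and day 3 as filled circles, each circle 1 library. In the left panel the filled red circles lie below the filled grey ones for all 8 effector genes. In the middle panel they lie above them for all 8 genes of naïve and follicular helper cells. In the right panel both red circles lie above both grey ones for Etv4, Etv5, Spred1, Spred2, Dusp6 and Spry4. The genes were chosen with their values known, so the shared direction within a panel is a description only. Genes of the same kinds that are not shown went the other way on day 3. Among them were Cxcr5, Pdcd1 and Il21 of follicular helper cells and Eomes of cytotoxic cells. Maf, placed in the left panel, is also described by the study as promoting follicular helper cells.

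Transcription factors differed in both directions, with Bcl6 and Id3 past the threshold upwards and Maf and Zbtb32 downwards. Bcl6, the repressor that directs follicular helper cells, at a deposited locus of chromosome 16 from 23964778 to 23988621 (read as GRCm38), went from an FPKM of 6.70 to 1.61 in WT and from 9.32 to 7.89 in cKO. The WT value fell past the threshold while the cKO log2 ratio was -0.24, with a difference of 1.75 (1.24 to 2.27), or under 1.5 with a pseudocount of 1. Prdm1, which encodes BLIMP1, a repressor that opposes BCL6, went from 1.92 to 11.1 in WT and from 1.39 to 3.66 in cKO, a difference of -1.14 (-1.70 to -0.58). Id3, an inhibitor of E proteins that is high in naïve and follicular helper cells, at chromosome 4 from 136143822 to 136145392, had 8.15 and 1.54 in WT and 6.41 and 7.17 in cKO, a difference of 2.49 (1.59 to 3.39). Id2, its counterpart in effector cells, went from 32.9 to 122 in WT and from 26.9 to 52.1 in cKO, a difference of -0.93 (-1.21 to -0.65).

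Maf, an activator of Il10 and Il21, at chromosome 8 from 115702468 to 115707956, went from 4.92 to 13.6 in WT and from 4.15 to 3.78 in cKO, a difference of -1.57 (-1.96 to -1.19), which a pseudocount of 1 brings under the threshold. Irf4 and Batf, partners in activated T cells, had differences of -1.04 (-1.19 to -0.89) and -0.98 (-1.32 to -0.65). Irf4 reached similar levels, 124 in WT and 111 in cKO, from unequal starts of 16.5 and 30.5, while Batf reached 169 and 97.0 from 23.2 and 26.4. Nfil3 went from 4.01 to 80.1 in WT and from 4.72 to 40.6 in cKO, a difference of -1.21 (-1.71 to -0.71). Irf8 had a larger ratio in cKO, with 51.6 on day 3 in WT and 71.5 in cKO, and a difference of 0.68 (0.17 to 1.18). Tbx21, which encodes T-bet of TH1 cells, Runx1, Runx3, Ahr, Bhlhe40, Zeb1, Tcf3, Tcf4, Tcf12 and Gata3 had differences between -0.17 and 0.14. Of 26 measured T helper factors 15 had a smaller and 11 a larger ratio in cKO, with a median difference of -0.09. Pparg, Batf3, Foxp3, Eomes and Zeb2 had differences between -0.88 and 0.78.

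Genes of naïve and quiescent cells stayed higher in stimulated cKO cells. Trat1, which encodes an adaptor associated with the T-cell receptor, went from 38.6 to 12.1 in WT and from 54.7 to 47.7 in cKO, a difference of 1.47 (1.27 to 1.66). Its RefSeq promoter is shown because it holds a CIC octamer. Of the genes over 1.5 higher in cKO on day 3, 43 had a promoter window, and 4 of these (9.3%) held one, Trat1 among them. In capitals here are 2 overlapping reverse complements near the far end (GRCm38.p6, minus strand, chr16:48772013-48772312).

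Trat1: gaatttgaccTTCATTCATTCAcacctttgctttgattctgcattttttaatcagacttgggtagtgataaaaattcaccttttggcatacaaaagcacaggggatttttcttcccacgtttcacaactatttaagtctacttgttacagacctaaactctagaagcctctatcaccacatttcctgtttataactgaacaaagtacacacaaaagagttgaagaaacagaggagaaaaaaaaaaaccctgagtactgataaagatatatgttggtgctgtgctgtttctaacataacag

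The share in genes measured that have a window was 2.75%, and in the list of naïve and quiescence genes it was 1 of 26 (3.85%). Among the departing genes with a window it was 4 of 61 of smaller induction, 2 of 107 of smaller repression and 2 of 46 of larger induction. Prf1, which was lower in cKO on day 3, was among those of smaller induction.

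Nsg2 went from 69.3 to 7.38 in WT and from 74.8 to 21.6 in cKO, a difference of 1.43 (1.11 to 1.75), and Dapl1, a gene high in naïve T cells, from 81.4 to 9.22 and from 70.3 to 26.1, a difference of 1.70 (1.10 to 2.30). Klf2, which maintains quiescence and trafficking, went from 131 to 5.87 in WT and from 139 to 14.9 in cKO, a difference of 1.24 (0.88 to 1.60), and its target S1pr1, needed to leave lymphoid organs, from 167 to 8.16 and from 182 to 19.7, a difference of 1.14 (0.88 to 1.41). Tcf7, which encodes TCF1, went from 182 to 22.3 and from 191 to 47.2, a difference of 1.0 (0.82 to 1.19). Txk, a kinase of resting T cells, and Pik3ip1, an inhibitor of PI3 kinase, had differences of 1.12 each. On day 0 the genotypes differed by at most 0.50 on the log2 scale in these 8 genes, and on day 3 all 8 were more than 2 times higher in cKO.

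Over the list of 30 naïve and quiescence genes, 17 were past the threshold downwards in cKO and 21 in WT, none upwards. Of the 30, 27 had a larger ratio in cKO (46.1% of all genes did). The median log2 ratio was -1.72 in cKO and -2.06 in WT. Only Id3 and Dapl1 were past the threshold in the difference (2.29% of all genes were). Tsc22d3, Satb1 and Foxo1 had smaller ratios in cKO, by 0.15 or less. Strongly repressed genes as a whole had a shift in the same direction. Among 350 genes whose mean ratio over both genotypes was between -3 and -1.5 the median difference was 0.21, with 71.7% above 0, and among 114 with a mean under -3 it was 0.62. Among 2248 with a mean from -1.5 to 0 it was 0.005, with 50.9% above 0, and among 4288 with a mean from 0 to 1.5 it was -0.08. Among 1215 with a mean from 1.5 to 3 it was -0.08, and among 431 with a mean over 3 it was 0.11, with 56.6% above 0. Without marker genes of other cells the value for the most repressed genes was 0.53. The list's median of 0.38 is to be read beside these.

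**Figure D4:**
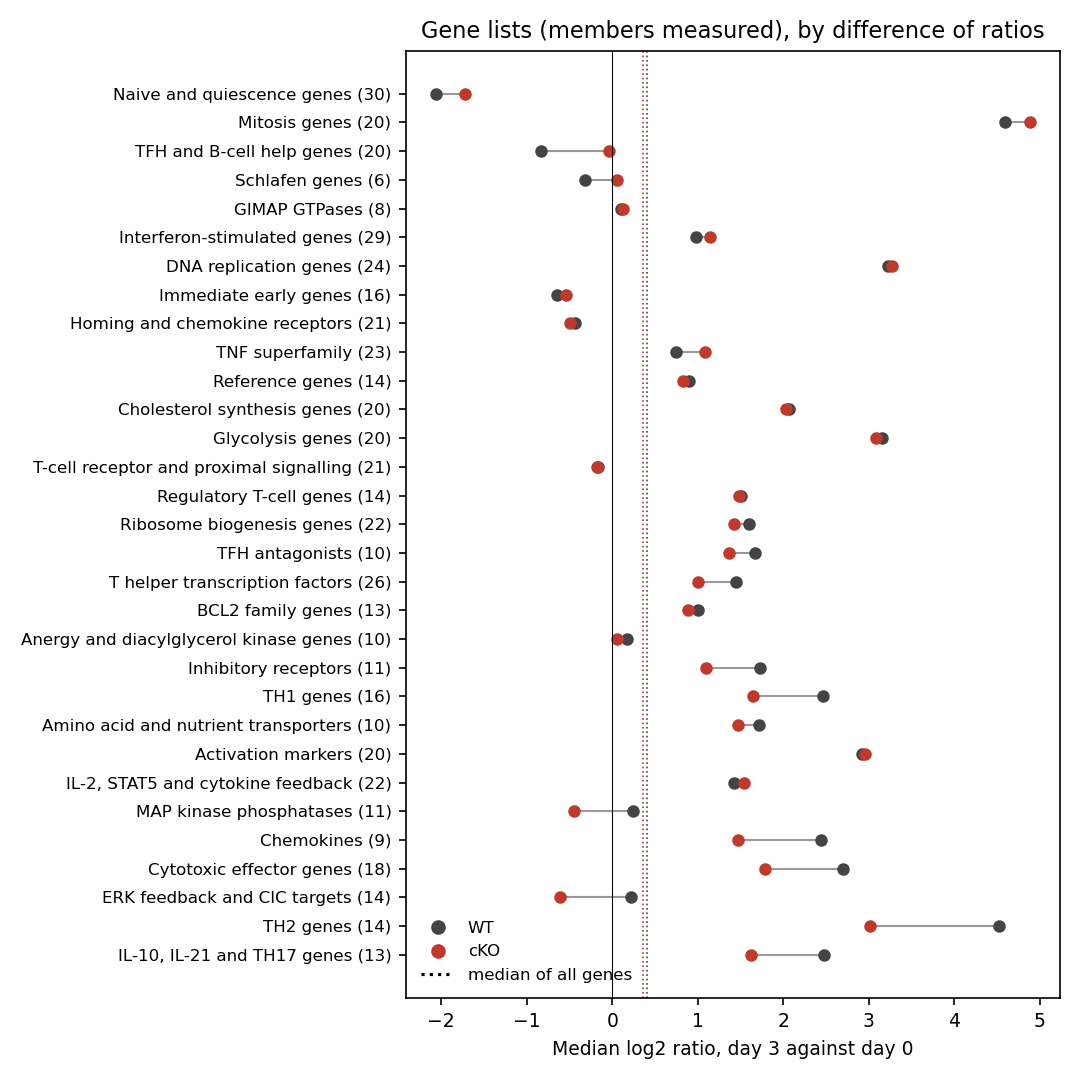
Median log2 ratio of day 3 to day 0 in WT (grey) and in cKO (red) for the gene lists other than markers of other cells, ordered by the median difference of ratios, with the number of measured members in brackets and the medians of all genes, 0.40 in WT and 0.36 in cKO, as dotted lines. Among these lists the widest gaps with cKO to the left are in the TH2 genes, the IL-10, IL-21 and TH17 genes, the cytotoxic effector genes and the chemokines, and with cKO to the right in the TFH and B-cell help genes.

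Listed genes of follicular helper cells (TFH), without Maf, were lower after stimulation in WT than in cKO as a whole, but their members parted. The list had a median log2 ratio of -0.04 in cKO and -0.84 in WT, with 14 of 20 larger in cKO (46.1% of all genes were). Its median cKO to WT log2 ratio was already 0.36 on day 0, and 0.50 on day 3. Besides Bcl6, Id3, Tcf7 and Lef1, the signalling adaptor gene Sh2d1a went from 14.5 to 11.3 in WT and from 21.8 to 29.5 in cKO, a difference of 0.80 (0.23 to 1.36), and its receptor partner Slamf6 from 49.9 to 14.2 and from 52.8 to 25.8, a difference of 0.77 (0.46 to 1.08). Cd40lg, which encodes a ligand through which help is given to B cells, went from 27.8 to 6.15 and from 45.0 to 13.7, a difference of 0.45 (-0.04 to 0.94). Tox, Slamf1, Tnfsf8, Cd84, Btla and Cd200 also had larger ratios in cKO, by 0.24 to 0.50.

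The homing receptor gene Cxcr5, which brings these cells to B-cell follicles, departed the other way, from 2.53 to 3.29 in WT and from 5.31 to 2.20 in cKO, a difference of -1.6 (-2.29 to -0.91), which a pseudocount of 1 brings under the threshold. It was higher in cKO on day 0 and lower on day 3. Its locus overlaps that of Bcl9l and 5 unnamed loci. Maf, which the study describes as promoting TFH differentiation, is not a member of the list. It too departed this way, with 13.6 on day 3 in WT and 3.78 in cKO. Pdcd1, which encodes PD-1, had 1.46 and 10.5 in WT and 2.21 and 9.18 in cKO, Icos 14.2 and 39.8 in WT and 21.9 and 48.0 in cKO, and Pou2af1, a B-cell coactivator also used by TFH cells, 4.28 and 15 in WT and 7.02 and 13.3 in cKO. All 3 began higher in cKO, and had differences of -0.76, -0.35 and -0.88. Il6st and Il6ra, the subunits of the interleukin 6 receptor, had differences of -0.19 and 0.04, and Il6st was higher in cKO on both days, with 105 and 24.6 against 51.9 and 13.9. B-cell markers were higher in cKO on day 0, with a summed FPKM over 16 genes of 186 against 111 in WT, and 274 against 235 on day 3, and 14 of 16 had a smaller ratio in cKO. Mzb1, a gene of antibody-secreting cells, was listed at 0 on day 0 in WT and had 1.94 in cKO, and 8.49 and 7.76 on day 3. The part of B cells in the values of Cxcr5, Pou2af1 and Mzb1 was not tested.

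The remaining lists, markers of other cells left out, had median differences from -0.54 to 0.34. The 4 measured dendritic-cell markers had a median difference of -0.57. Interferon-stimulated genes had a median difference of 0.16, with 19 of 29 larger in cKO, among them Rsad2, Mx2 and the locus Ifit2,Ifit3 by 1.12, 1.0 and 0.85, none past the threshold. Of 6 Schlafen genes, regulators of T-cell quiescence, all had a larger ratio in cKO, with a median difference of 0.34. The 8 GIMAP GTPases and the 23 genes of the TNF superfamily had median differences of 0.18 and 0.09, the 22 genes of IL-2, STAT5 and cytokine feedback -0.36, the 11 MAP kinase phosphatases -0.54, the 11 inhibitory receptors -0.14, the 10 amino acid and nutrient transporters -0.25, the 14 genes of regulatory T cells -0.05, the 10 antagonists of TFH cells -0.08, the 13 BCL2 family genes -0.12, the 10 genes of anergy and diacylglycerol kinases -0.12, the 21 homing and chemokine receptors 0.10 and the 16 immediate early genes 0.14. None of these had more than 2 members past the threshold in either direction.

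Among the genes of smaller repression were myeloid genes that were already lower in cKO on day 0. Markers of other cells made up 21 of the 155 genes of this class, and 14 of the 41 with an FPKM of at least 5. The scavenger receptor gene Mrc1 went from 15.4 to 0.0657 in WT and from 3.28 to 0.0826 in cKO, and the transferrin gene Trf from 34.3 to 0.103 and from 8.04 to 0.195. C1qa, C1qb and C1qc, subunits of complement C1q, were listed at 0 on day 3 in both genotypes, after 29.0, 27.8 and 25.5 in WT and 7.91, 7.62 and 6.87 in cKO. The summed FPKM of 29 macrophage and monocyte markers was 503 on day 0 and 26.1 on day 3 in WT and 159 and 15 in cKO, with none listed at 0 on day 0 and 10 and 14 listed at 0 on day 3. Of these, 14 had a difference over 1.5 and 1, Lyz2, under -1.5, and the list median was 1.44. The difference thus measures the day 0 level of genes that were near 0 in stimulated cells of both genotypes. The 10 neutrophil markers (69.0 and 1.63 in WT, 35.7 and 1.80 in cKO), the 13 erythroid markers (497 and 39.6, 189 and 19.4) and the 8 markers of basophils, mast cells and eosinophils (40.7 and 17.6, 15.3 and 14.1) were likewise lower in cKO on day 0 as sums. Their part in other day 0 differences was not tested. Axl, Mpeg1, Il18 and Pld4 kept a level above 0 on day 3 in both genotypes. Mpeg1 had 16.9 and 1.58 in WT and 4.90 and 2.43 in cKO, a difference of 2.35 (1.84 to 2.87). Without the marker genes of other cells 246 genes had a difference over 1.5 and 176 under -1.5.

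Larger induction in cKO went mostly with a low day 0 value. Cenpv, which encodes a centromere protein, went from 2.04 to 10.3 in WT and from 0.238 to 8.56 in cKO, a difference of 2.40 (0.13 to 4.66), and the metallothionein gene Mt1 from 7.09 to 61.7 and from 1.31 to 37.5. On day 3 Cenpv and Mt1 were lower in cKO. A few loci with very large departures hold 1 library apart from the other 3. Lrfn1 had 0.823 on day 0 in WT and 64.4, 103 and 59.4 in WT day 3, cKO day 0 and cKO day 3. Prmt2 had 42.7 in cKO day 0 and 2.59, 3.26 and 3.93 elsewhere. Rbks had 36.8 in cKO day 3, against 14.7 and 7.57 in WT and 6.19 in cKO day 0. The joint locus of Meg3, Mir1906-2 and Mir770 was listed at 37.3 on day 3 in WT, at 0 on day 3 in cKO and under 0.1 on day 0. Cldn10 was listed at 0 in WT day 3 and had 42.3 in cKO day 0, and it overlaps Dzip1.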

How the data were processed

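RNA sequencing of 4 libraries, 1 for each genotype and day, was deposited as tables of 31171 loci. The authors made TruSeq libraries, sequenced them on an Illumina NextSeq, mapped reads with TopHat2 2.0.10 to mm9 and used Cufflinks 2.1.1 for transcripts and FPKM values, and the submitters' processing notes also name CASAVA. Gene ends of the deposited loci equal those of GRCm38.p6 for 44.1% of 21629 genes and those of mm9 for 0.717% of 20234, so positions are read as GRCm38 and counted from 1. The FPKM values deposited per library, 1 table for each genotype, were used. The authors' own fold changes and p-values, the tables of cKO against WT and the tables of functional annotation, 18 files in all, were not used.

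Loci without a name (7265, or 23.3%) and 7 loci with a failed or excessive-data status were left out, 25 names turned into dates in the WT table were taken from the cKO table, and where a name stood on more than 1 locus (410 names) only that with the highest mean FPKM was kept. A locus can cover several genes. Ratios were log2((FPKM + 0.1)/(FPKM + 0.1)) for genes reaching an FPKM of 1 in a library compared. With 1 library a group there was no test. Fragments were estimated from the steps between low FPKM values and the transcript length in GENCODE (for 74.5% of 783 genes with 1 transcript the step was within 0.1 log2 of that predicted), and intervals cover counting error only. The rule for named genes took, at an FPKM of at least 5 in some library and without small RNA genes, the 15 largest and 15 smallest differences, the 8 highest and 8 lowest cKO ratios and, from each list with at least 3 measured members, the 4 with the largest absolute difference and any past the size threshold, with all members of the lists of ERK feedback and CIC targets, T helper transcription factors and TFH genes, and Cic and Mki67. It gave 214 genes, some of which are not reported here. Other genes in the text were chosen after their values were seen. The 39 gene lists, of which 8 are markers of other cells, and the members were chosen with earlier results of these data known. The calculation was tested on simulated data. Alternatives were other pseudocounts, filters, centring, a threshold of 1, removal of marker or small RNA genes, unnamed loci and summed loci, and, chosen after seeing the data, removal of genes listed at 0 and a minimum of 20 fragments. Versions were 3.11.15 of Python, 2.4.6 of numpy, 2.3.3 of pandas and 3.10.9 of matplotlib.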

Additional observations from a re-analysis of the deposited data

Results flagged for a closer look

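For 9 named genes without a value at 0 and with a difference of log2 ratios past the threshold, the 2 libraries of WT moved one way and the 2 of cKO the other. These differences were not tested. The 95% counting interval of the cKO log2 ratio spanned 0 for Id3 (-0.31 to 0.63), Maf (-0.43 to 0.17) and Prf1 (-0.62 to 0.11), so for these the direction in cKO is not beyond counting error. No such interval was made for the WT log2 ratios. These were small for Spry4 (0.60), Cxcr5 (0.37) and Prmt2 (0.32). They rested on 8 and 16, 48 and 72, and 38 and 55 estimated fragments, so the direction in WT is uncertain for these genes. The 9 genes were Lrfn1 at -6.92, Prmt2 at -3.72, Prf1 at -2.52, Spry4 at -1.65, Cxcr5 at -1.6, Maf at -1.57, Id3 at 2.49, Rbks at 3.50 and the joint locus of 5730408K05Rik and Mir5136 at 5.62. In that last locus the FPKM went from 176 to 38.2 in WT and from 15 to 161 in cKO.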

How the results depend on the processing

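No paired analysis was possible because there was 1 library for each genotype and day, and for the same reason none could be left out. The counts of genes higher and lower on day 3 in cKO (1943 and 781) and of larger and smaller ratios in cKO than in WT (267 and 181) moved by over 1.5 times as follows. A size threshold of 1 gave 3221, 1342, 586 and 393. A pseudocount of 1 gave 419 lower, 66 larger and 54 smaller. An FPKM of at least 5 gave 413, 86 and 73 of these, no filter 1290, 709 and 539, and unnamed loci 4488, 1336 and 1261. Without genes listed at 0 there were 98 smaller, and with at least 20 fragments 142 larger and 88 smaller.

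Centring on each table's median shifts ratios by 0.36 in cKO and 0.40 in WT. It gave 1347 higher and 1151 lower, and turned the median log2 ratio of GIMAP genes (-0.24) and B-cell markers (-0.23) in cKO, and of CIC targets (-0.18), MAP kinase phosphatases (-0.17) and anergy genes (-0.23) in WT.

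With a pseudocount of 1 the median cKO log2 ratio was 0.96 for IL-10, IL-21 and TH17 genes, -1.31 for NK-cell, -1.56 for macrophage, -1.25 for neutrophil and -0.81 for erythroid markers, and the median difference was 0.15 for NK-cell and 0.51 for neutrophil markers. With 0.01 it was -5.49 for macrophage and -6.37 for neutrophil markers. With an FPKM of at least 5 it was 3.95 for TH2 genes, 1.87 for BCL2 genes, -3.07 for NK-cell, -4.30 for macrophage and -4.85 for neutrophil markers, and the median difference was 0.13 for TH1 genes, 0.21 for NK-cell and -0.61 for erythroid markers. With no filter, dendritic-cell markers had -1.71 and a median difference of 0.13.

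Of 57 named genes past the threshold in the difference, 20 came under it with a pseudocount of 1, among them Bcl6, Maf, Cxcr5, Havcr2 and Spry4, and the differences of Cldn10 and Lyz2 turned to -0.32 and 0.52. Apol8 came under it by centring and Mpo with 0.01. The causes were not tested.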
